A study of Mus musculus with 30 samples.

Results

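The genes described here encode the proteins of the mitochondrial ribosome, the machine that translates the few proteins encoded by mitochondrial DNA. They were taken by name, as every symbol in the deposited gene table that starts with Mrpl or Mrps and a number, without pseudogene symbols. The rule used no measured value and gave 76 of 16025 symbols, 47 named Mrpl and 29 named Mrps, and all 76 passed the filter on low counts that left 12184 genes for testing. RNA was measured in 30 cultures of differentiated C2C12 myotubes, the contractile cells formed from a single mouse myoblast line over 5 to 7 days of differentiation, with 3 libraries in each of 10 groups; all cultures carry the label Wildtype. The groups were RGW_Dgal, SFr_Dgal, NSFr_Dgal and Rb2_Dgal (a ginseng preparation for 12 h, then D-galactose for 24 h), Dgal (D-galactose alone, 20 mg/mL for 24 h), RGW, SFr, NSFr and Rb2 (a preparation alone) and control (vehicle). RGW is a water extract of Korean Red Ginseng, SFr its saponin fraction and NSFr its non-saponin fraction, each at 100 µg/mL, and Rb2 is a purified ginseng saponin, ginsenoside Rb2, at 20 µM. The preparations alone carry a labelled time of 12 h, so a group with preparation and D-galactose was longer in treatment than the same preparation alone, and the duration of the vehicle treatment is not given in the sources used here. D-galactose in excess is a common way to make cells or animals show changes seen in ageing, and the design asks what it changes in myotubes and whether the preparations alter that.

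The mitochondrial ribosome has a small subunit, which holds the messenger RNA and the decoding centre, and a large subunit, which forms the peptide bond and threads the new protein out through an exit tunnel. Its ribosomal RNAs come from mitochondrial DNA, while every protein of it is encoded in the nucleus, made in the cytosol and imported, so that both genomes have to be expressed together. Some of its proteins descend from bacterial ribosomal proteins and others were gained in the mitochondrial lineage. Muscle depends on it because the subunits of the respiratory chain that it makes are used in bulk there. A symbol does not always give the place: the proteins of Mrps18a and Mrps30 lie in the large subunit, and that of Mrps36 is now known as a part of the 2-oxoglutarate dehydrogenase complex. Mrps18a, Mrps18b and Mrps18c are paralogs of 1 bacterial protein, S18, and each has its own position in the ribosome.

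These genes are scattered over the genome. Their promoter windows were searched for 5 motifs, and those of the members whose differences held best are printed. RefSeq promoter windows on GRCm38.p6, from 250 bases before to 50 bases after the start, were found for 67 of the 76 genes, 73 windows in all. The letters CCGGAAG, the core bound by ETS factors such as GABP, stood on either strand in 32.9% of the members' windows, against 8.86% of all 32851 windows and 16.2% of those of tested genes. The NRF1 consensus, bound by a regulator of nuclear genes for mitochondria, stood in 17.8% of the members' windows, against 4.6% of all windows and 9.29% of those of tested genes. For AAGATGGCG, bound by YY1, the shares were 11%, 1.40% and 2.77%. An E-box, CACGTG, was in 9.59% of the members' windows, against 7.15% and 9.62%, and CCAAT, bound by NF-Y, was in 39.7%, against 37.4% and 37.5%. Both strands were searched, a window counted once for each motif, matches of different motifs were allowed to overlap, and a match describes the letters only. The windows of 6 members follow, chosen after their values were seen as all the genes that stayed called in every alternative of at least 1 comparison, each 5′ to 3′ on the gene's strand, with the ETS and NRF1 letters in capitals.
Mrps18b: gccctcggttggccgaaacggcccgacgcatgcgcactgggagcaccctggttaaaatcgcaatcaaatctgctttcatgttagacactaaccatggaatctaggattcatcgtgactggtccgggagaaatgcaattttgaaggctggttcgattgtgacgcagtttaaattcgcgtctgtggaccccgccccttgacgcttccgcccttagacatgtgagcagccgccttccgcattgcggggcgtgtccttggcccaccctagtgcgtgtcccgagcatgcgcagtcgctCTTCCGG
Mrpl43: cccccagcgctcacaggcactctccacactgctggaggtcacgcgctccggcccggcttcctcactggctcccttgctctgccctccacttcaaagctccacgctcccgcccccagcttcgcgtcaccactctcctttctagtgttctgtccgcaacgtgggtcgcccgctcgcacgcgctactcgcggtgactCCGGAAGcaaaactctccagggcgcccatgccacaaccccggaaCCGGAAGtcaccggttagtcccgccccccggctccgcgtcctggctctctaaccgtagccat
Mrps12: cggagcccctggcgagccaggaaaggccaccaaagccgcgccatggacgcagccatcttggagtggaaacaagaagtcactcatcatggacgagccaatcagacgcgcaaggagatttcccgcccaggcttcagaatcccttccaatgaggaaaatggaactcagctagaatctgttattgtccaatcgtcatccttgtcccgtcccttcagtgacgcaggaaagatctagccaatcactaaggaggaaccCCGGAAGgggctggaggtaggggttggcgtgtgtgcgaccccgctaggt
Mrpl14: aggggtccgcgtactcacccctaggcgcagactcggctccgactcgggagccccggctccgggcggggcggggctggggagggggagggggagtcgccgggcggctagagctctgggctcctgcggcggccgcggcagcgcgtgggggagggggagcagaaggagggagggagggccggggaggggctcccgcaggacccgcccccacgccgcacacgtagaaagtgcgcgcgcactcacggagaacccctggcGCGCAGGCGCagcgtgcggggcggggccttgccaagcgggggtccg
Mrpl23: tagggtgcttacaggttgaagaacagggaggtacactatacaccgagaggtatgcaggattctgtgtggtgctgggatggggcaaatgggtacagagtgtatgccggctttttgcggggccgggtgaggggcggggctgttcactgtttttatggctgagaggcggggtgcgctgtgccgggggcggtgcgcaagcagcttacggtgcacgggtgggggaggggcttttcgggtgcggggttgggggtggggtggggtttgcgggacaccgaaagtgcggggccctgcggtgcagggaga
Mrpl16: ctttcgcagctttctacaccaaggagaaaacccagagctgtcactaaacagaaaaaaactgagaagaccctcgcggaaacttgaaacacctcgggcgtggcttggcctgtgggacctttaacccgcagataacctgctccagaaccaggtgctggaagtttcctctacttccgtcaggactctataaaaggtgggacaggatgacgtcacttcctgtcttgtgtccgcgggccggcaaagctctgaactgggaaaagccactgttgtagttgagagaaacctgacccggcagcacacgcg
They lie at chr17:35916391-35916690 (minus strand, Mrps18b), chr19:45006393-45006692 (minus strand, Mrpl43), chr7:28741772-28742071 (minus strand, Mrps12), chr17:45686099-45686398 (plus strand, Mrpl14), chr7:142532782-142533081 (plus strand, Mrpl23) and chr19:11770165-11770464 (plus strand, Mrpl16). The ETS letters stood once in the windows of Mrps18b and Mrps12 and at 2 places in that of Mrpl43, and the window of Mrpl14 had the NRF1 letters. The windows of Mrpl23 and Mrpl16, like those of Mrpl1 and Mrpl47, held none of the 5 motifs, and a link between a motif and a call was not tested. Many of the genes also stand back to back with another gene. In the GENCODE vM21 annotation, 18 of 76 members (23.7%) had a protein-coding gene starting within 1000 bases on the opposite strand and running away from them, against 1292 of 15970 protein-coding genes in the table (8.09%).

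Library totals ranged from 22209306 to 30218420 counts, and each of the genes had between 194 and 2175 counts in a library. Values are given as CPM, the usual depth-scaled count, with the library total scaled by TMM, a normalization for library composition. All 12 myotube markers passed the filter, with a summed level of 20000 to 29100 CPM per library; the 5 myoblast markers summed to 2450 to 3200 CPM, 2 of 7 bone and cartilage markers passed the filter and none of 5 fat markers did. Myotube markers summed to 22200 to 23300 CPM in SFr_Dgal and 20000 to 21400 CPM in SFr, lower than the 25200 to 29100 CPM of all other libraries. Myoblast markers were lower in the same groups, at 2450 to 2570 CPM in SFr_Dgal and 2510 to 2590 CPM in SFr, against 2910 to 3200 CPM elsewhere. In bulk RNA, fewer cells of a type and less RNA per cell cannot be told apart. The 76 genes together took 2408 to 2934 CPM. In 3 libraries the genes stood apart as a set: their median deviation from each gene's own mean over 30 libraries was 0.162 on the log2 scale in SFr_Dgal 3, -0.123 in RGW 1 and 0.124 in control 1, against -0.064 to 0.059 in the other 27. In these 3 libraries 120 other genes with transcripts under 700 bases and a mean of at least 10 CPM moved the same way (0.265, -0.254 and 0.151, against -0.178 to 0.129 elsewhere). Cytosolic ribosomal protein genes were not taken out of these 120. The mitochondrial ribosomal transcripts are short, with a median of 1302 bases against 3059 for all tested genes. In the same 3 libraries, the 9 members under 700 bases deviated by 0.252, -0.257 and 0.227, and the other members by 0.157, -0.098 and 0.117. Results that rest on these libraries are given with and without them. Counts of calls are also given with a trend on transcript length removed from each library, which shows how far the calls move. Transcript length as a cause, and with it RNA or library quality, was not tested.

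**Figure D1:**
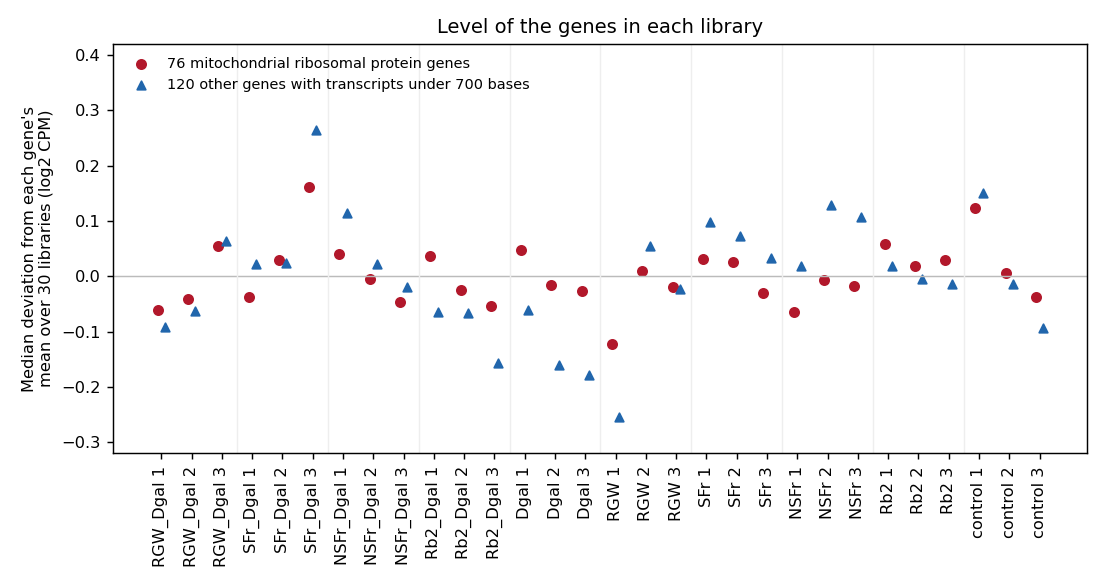
Median deviation of the 76 mitochondrial ribosomal protein genes (circles) and of 120 other genes with short transcripts (triangles) in each of the 30 libraries, as log2 CPM relative to each gene's mean over all libraries. SFr_Dgal 3 and control 1 lie above 0 and RGW 1 below 0 in both, while in the 3 Dgal libraries the short genes are low and the mitochondrial ribosomal genes lie near 0.

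All 76 genes were expressed in every library. Mean levels over the 30 libraries ran from 10.7 CPM for Mrps28 to 61.8 CPM for Mrps21, with a median of 32.2 CPM. Between genes a level is best read per length of transcript, here the principal transcript of GENCODE. On that scale Mrps21, a small subunit protein of bacterial origin, was highest at 127 CPM per kilobase, followed by the large subunit genes Mrpl42 at 87.2 and Mrpl52 at 78.5 CPM per kilobase. Mrpl35 (3.47), Mrps35 (3.66) and Mrpl48 (3.93 CPM per kilobase) were lowest, with annotated transcripts of 3721, 4162 and 4285 bases, so the order depends on the transcript chosen.

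The genes varied little between groups. The highest group mean divided by the lowest had a median of 1.161 over the 76 genes, from 1.051 for Mrps17 to 1.373 for Mrpl23, against a median of 1.259 over all tested genes and 1.209 over the 4919 genes in the same range of CPM. By this measure 0 of the 76 genes passed 1.5-fold, against 26.5% of all tested genes and 11.1% of those in the same range. An omnibus test over the 10 groups (edgeR's quasi-likelihood F-test, with Benjamini-Hochberg adjustment over all genes and calls at an adjusted p below 0.05) called 34 of the 76 (44.7%), where it called 72.9% of all genes. The smallest p-values were those of Mrps18b (adjusted p = 1.51e-07), Mrpl43 (2.65e-05), Mrpl23 (3.26e-04) and Mrps10 (6.39e-04), followed by Mrps12, Mrpl9, Mrpl1 and Mrpl41 (adjusted p from 8.98e-04 to 0.00173). In every one of the 15 pairwise comparisons, the 95% interval of each of the 76 genes lay within 1.5-fold of no change. For 60 to 76 of them it lay within 1.25-fold, as it did for 53.9% to 74.0% of all tested genes, which were not matched for level.

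**Figure D2:**
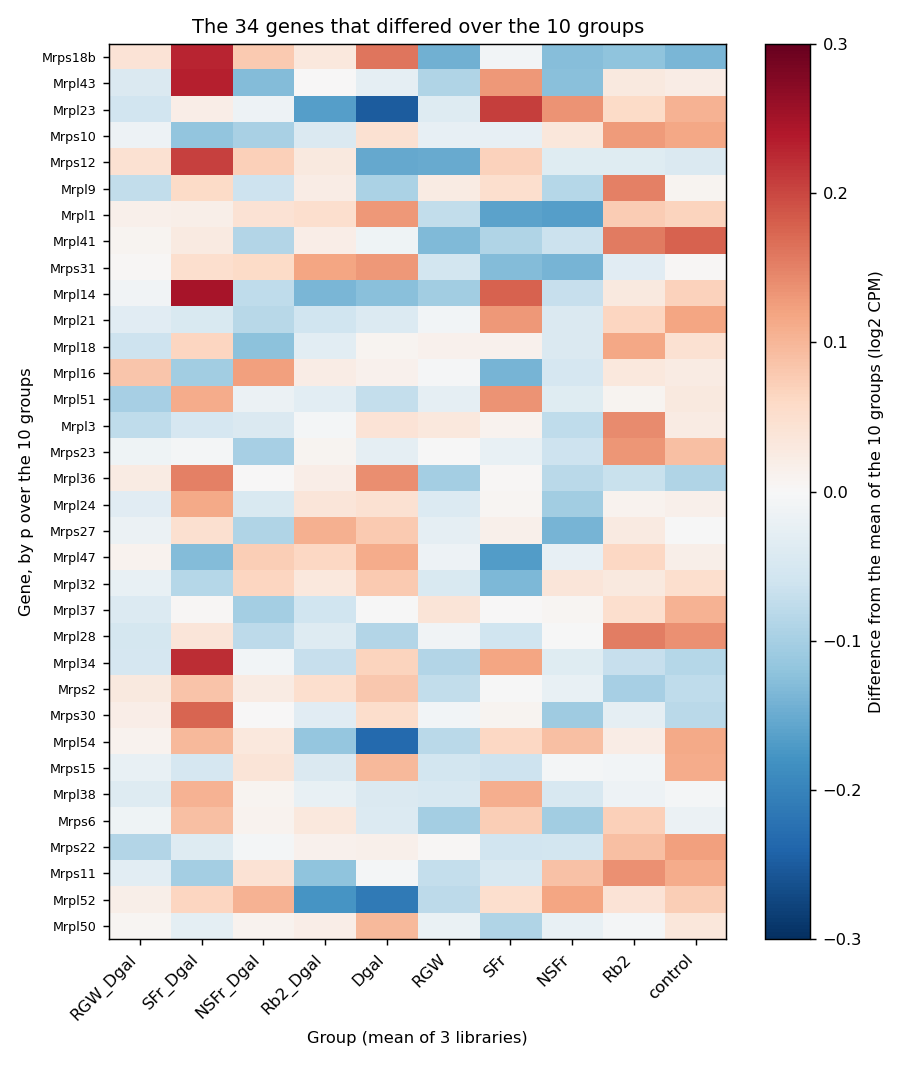
Mean log2 CPM of the 34 mitochondrial ribosomal protein genes called in the omnibus test, by group of 3 libraries, as the difference from the mean of the 10 groups, with the smallest p at the top. Mrps18b is above its mean in all 5 groups with D-galactose and at or below it in the 5 without, Mrpl43 and Mrpl14 are red in SFr_Dgal and SFr, and Mrpl23, Mrpl54 and Mrpl52 are bluest in Dgal.

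The clearest response was a rise of 1 small subunit gene after D-galactose. Mrps18b (ENSMUSG00000024436, chromosome 17, 35910379 to 35916389 on the minus strand of GRCm38) had 31.2, 31.7 and 30.3 CPM in Dgal, against 26.6, 24.5 and 24.7 CPM in control. All 3 Dgal libraries lay above all 3 control libraries, and the log2 fold change was 0.30 ± 0.055 (SE, edgeR adjusted p = 1.42e-04, n = 3 per group). The same D-galactose exposure was measured after each preparation in libraries of its own, so the 5 comparisons share none. After the water extract, Mrps18b had 27.8, 27.9 and 30.1 CPM in RGW_Dgal, against 24.7, 24.9 and 25.9 CPM in RGW (0.18 ± 0.055, adjusted p = 0.0188). After the saponin fraction it had 32.9, 30.2 and 34.9 CPM in SFr_Dgal, against 28.7, 27.2 and 27 CPM in SFr (0.24 ± 0.053, adjusted p = 0.00103). In these 3 comparisons the groups did not overlap. After the non-saponin fraction it had 30.1, 30.6 and 27.5 CPM in NSFr_Dgal, against 24.9, 26.4 and 25.0 CPM in NSFr (0.21 ± 0.055, adjusted p = 0.00835). After Rb2 it had 28.9, 28.2 and 28.2 CPM in Rb2_Dgal, against 26.9, 25.4 and 24.4 CPM in Rb2 (0.16 ± 0.055, adjusted p = 0.0401). Here too every library with D-galactose was above every library without it. The D-galactose response of Mrps18b did not pass a test of difference over the 5 backgrounds (adjusted p = 0.782).

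**Figure D3:**
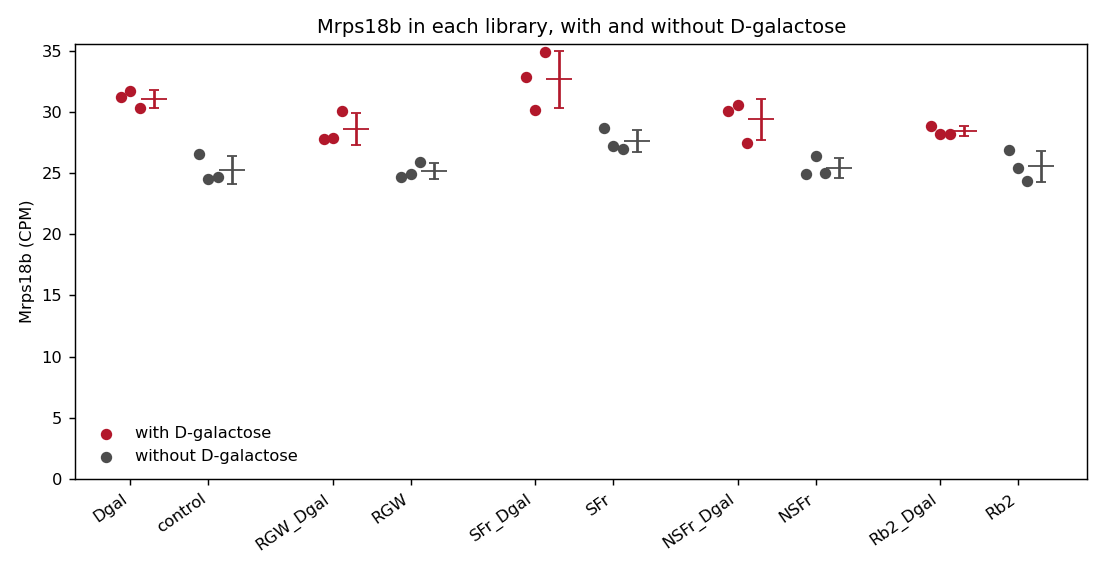
Mrps18b in CPM in each library (points; 3 per group), with the mean and SD beside them, for the 5 pairs of groups with (red) and without (grey) D-galactose. Within each pair, all 3 libraries with D-galactose lie above all 3 without it.

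The rise of Mrps18b after D-galactose alone and after the saponin fraction was called in every alternative, with log2 fold changes of 0.27 to 0.35 and 0.20 to 0.30. After NSFr the call was lost without NSFr_Dgal 2, after RGW without RGW 1, RGW 2 or RGW_Dgal 3, and after Rb2 in 7 of 13 alternatives (adjusted p up to 0.181), with the sign kept throughout. All 30 deposited values of Mrps18b were fractional, so some of its reads were divided with another gene, and its exons overlap 638 bases of the antisense gene Gm16279, whose reads cannot be told apart if the counting ignored strand. The paralogs did not pass the test after D-galactose alone: Mrps18a averaged 30.4 ± 2.08 CPM in Dgal and 33.1 ± 2.35 CPM in control (SD, n = 3 each; log2 fold change -0.13 ± 0.074 SE, adjusted p = 0.217), and Mrps18c averaged 21.8 ± 1.72 and 22.7 ± 1.56 CPM (-0.06 ± 0.076, adjusted p = 0.592). After the preparations, neither paralog passed in any of the 4 D-galactose comparisons.

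In all, 10 of the 76 genes (13.2%) were called between Dgal and control, 3 higher and 7 lower, where 25.1% of all tested genes were called, 11.9% higher and 13.1% lower. Besides Mrps18b, Mrpl36, a large subunit protein with a bacterial counterpart, averaged 26.2 ± 1.03 CPM in Dgal and 22.4 ± 1.56 CPM in control (SD, n = 3; log2 fold change 0.23 ± 0.071 SE, adjusted p = 0.0194). Mrps2, a protein of the small subunit, averaged 32 ± 2.17 CPM in Dgal and 28.6 ± 0.933 CPM in control (0.16 ± 0.057, adjusted p = 0.0385). Those that fell were all named Mrpl. Mrpl23, whose protein lines the rim of the exit tunnel, had 17.5, 19.5 and 18.3 CPM in Dgal, against 26.1, 22.9 and 21.9 CPM in control, with no overlap and a log2 fold change of -0.36 ± 0.084 (adjusted p = 0.00179). Mrpl54, gained in the mitochondrial lineage, had 23.8, 24.3 and 23.3 CPM in Dgal, against 35, 30.3 and 26.3 CPM in control (-0.37 ± 0.095, adjusted p = 0.00549), so the spread lay mostly in control. Mrpl52 (-0.30), Mrpl28 (-0.23), Mrpl41 (-0.20), Mrpl13 (-0.20) and Mrpl21 (-0.16) also fell, and for Mrpl28 and Mrpl21 the groups overlapped. The call of Mrpl52 was lost in 7 of 13 alternatives (adjusted p up to 0.222), as was that of Mrps2 (up to 0.214). Mrpl41 lost its call in 8 (up to 0.355), Mrpl13 in 6 (0.234), Mrpl28 in 5 (0.18) and Mrpl36 in 4 (0.0892). The genes not called had log2 fold changes from -0.23 to 0.16.

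The count of falls moved with control 1. Mrpl23 was called in every alternative, but Mrpl54 lost its call without control 1 (adjusted p = 0.0726). Without control 1 there were 4 calls (5.26%, against 19.4% of all genes), 3 higher and 1 lower. There were 5 without control 2 (6.58%, against 19.8%), 3 without Dgal 2 (3.95%, against 17.1%) and 4 without Dgal 3 (5.26%, against 19.1%). With control 1, RGW 1 and SFr_Dgal 3 all left out, 3 genes rose (Mrps18b, Mrpl36 and Mrps30) and 3 fell (Mrpl23, Mrpl54 and Mrpl52). Those calls were 7.89% of the 76, against 21.9% of all genes. With a trend on transcript length removed from each library, 6 rose and 6 fell (15.8%, against 29.5% of all genes). The median change of all 76 genes was -0.0405, against -0.0042 over all tested genes. Mitochondrially encoded transcripts took 1.48% ± 0.182 of counts in Dgal and 0.908% ± 0.211 in control (SD, n = 3), and the 12 proliferation markers, all of which fell, summed to 103 to 116 CPM in Dgal and 240 to 245 CPM in control; their part in these results was not tested.

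**Figure D4:**
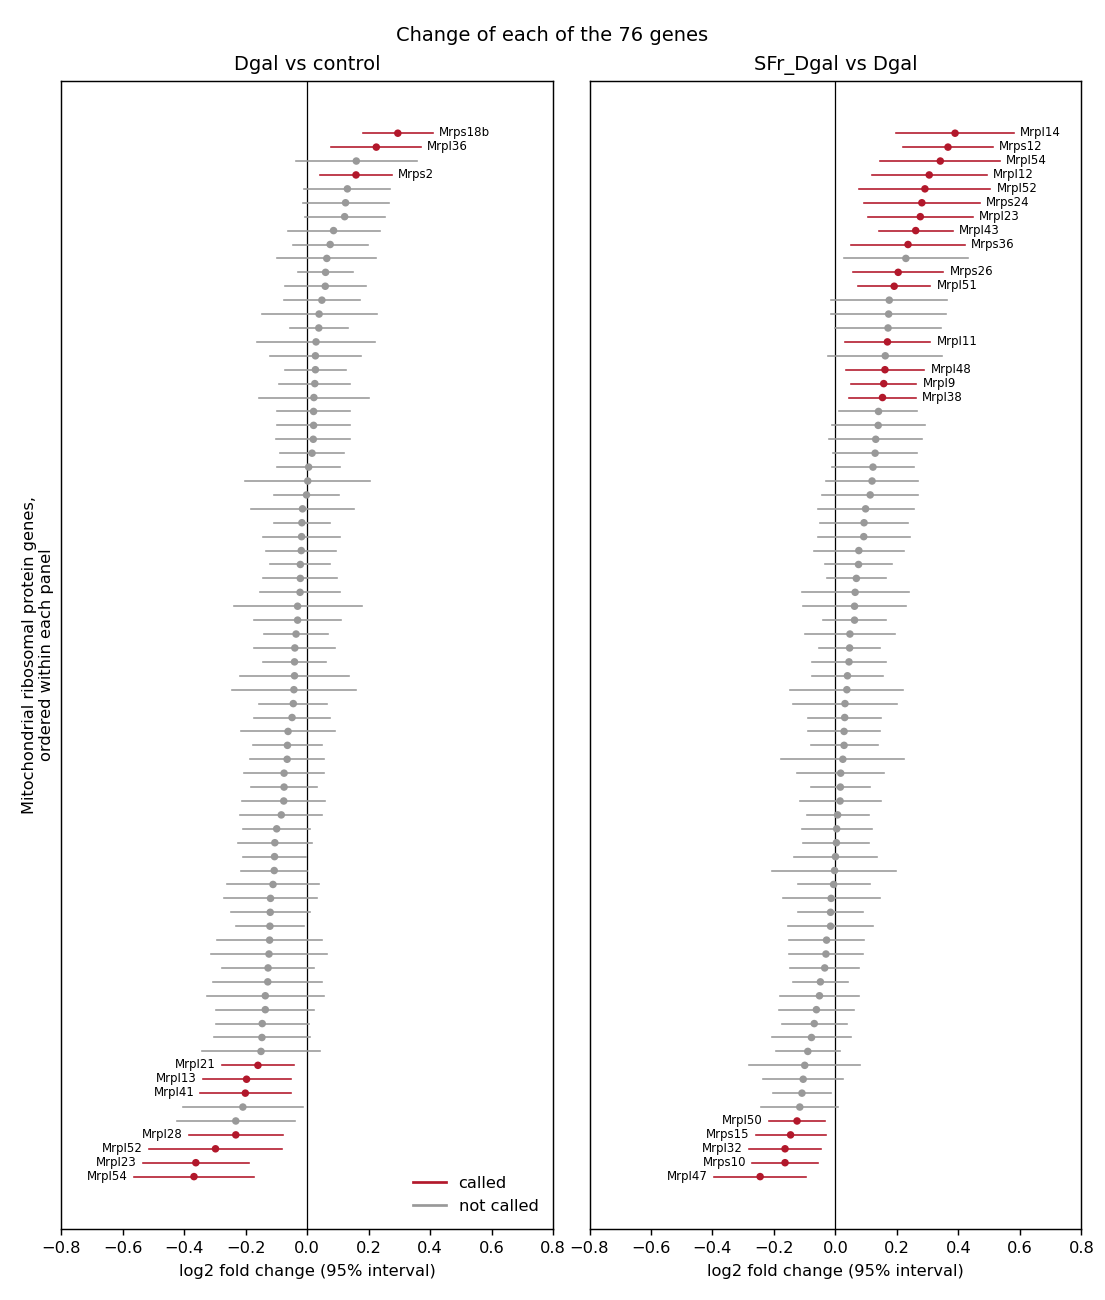
Log2 fold change of each of the 76 genes with its 95% interval, ordered by size within each panel, for Dgal against control (left) and SFr_Dgal against Dgal (right), with called genes in red and named. The 3 rises and 7 falls of the left panel lie between -0.37 and 0.30, and Mrpl54, Mrpl23 and Mrpl52, at the bottom on the left, stand among the rises on the right.

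Of the 4 preparations given alone, the saponin fraction had the most calls among these genes and Rb2 had none. All 4 comparisons use the same 3 control libraries, of which control 1 was high for the family. Between SFr and control, 12 of 76 genes (15.8%) were called, 0 higher and 12 lower, against 43.1% of all genes, 21.3% higher and 21.8% lower. They were led by Mrpl41, Mrpl1, whose protein forms a mobile stalk beside the exit site for transfer RNA, and Mrpl28. Mrpl41 had 22.8, 22.4 and 19.0 CPM in SFr, against 28.7, 24.9 and 23.8 CPM in control (log2 fold change -0.28 ± 0.071, adjusted p = 0.00167). Mrpl1 had 24.7, 24.9 and 22.1 CPM in SFr, against 29.1, 28 and 26.8 CPM in control (-0.23 ± 0.065, adjusted p = 0.00412). Neither gene's groups overlapped. The other falls, in Mrpl47, Mrps22, Mrpl32, Mrps15, Mrpl42, Mrpl16, Mrps10, Mrpl45 and Mrpl50, were between -0.19 and -0.13.

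That direction depended on control 1. Without it, 7 genes were called (9.21%, against 40.2% of all genes), 6 higher and 1 lower. With the 3 libraries left out, 14 were called (18.4%, against 42.2% of all genes), 11 higher and 3 lower. The 3 were Mrpl1 (-0.19, adjusted p = 0.0178), Mrpl41 (-0.18, 0.0320) and Mrpl42 (-0.14, 0.0462). The 11 were led by Mrpl14 (0.23, 5.98e-04), Mrps12 (0.20, 0.0207) and Mrpl12 (0.19, 0.00857), and Mrps18b (0.18, 0.0153) was among them. Mrpl41 lost its call without control 1 (adjusted p = 0.0531) and Mrpl1 without SFr 3 (0.0543). Without SFr 3 there were 4 calls (5.26%, against 39.0% of all genes). With the trend on transcript length removed, 21 genes fell and 0 rose (27.6%, against 46.6% of all genes called in either direction). Beside this, 9 of 12 myotube markers and all 12 proliferation markers fell in SFr, whose part was not tested.

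Between RGW and control, 2 of 76 genes (2.63%) were called, both lower, near the 3.21% of all genes (2.04% higher, 1.17% lower). Of the 76, 68 had a negative log2 fold change, with a median of -0.0917 against -0.0037 over all genes. At an unadjusted p under 0.05 there were 16 members, for which no share of all genes was counted. RGW 1 was low and control 1 high for the family, and their part in this shift was not tested. Mrpl41 averaged 20.7 ± 0.464 CPM in RGW and 25.8 ± 2.58 CPM in control (-0.32 ± 0.072, adjusted p = 0.00794). Mrpl42 averaged 54.2 ± 4.83 and 62.0 ± 2.39 CPM in the same order (-0.19 ± 0.056, adjusted p = 0.0458). Mrpl42 lost its call in 10 of 13 alternatives (adjusted p up to 0.456) and Mrpl41 in 3 (up to 0.129). Between NSFr and control 2 genes were called, both lower, against 8.08% of all genes (4.56% higher, 3.51% lower): Mrpl41 at 21.7 ± 1.16 CPM in NSFr and 25.8 ± 2.58 CPM in control (-0.25 ± 0.071, adjusted p = 0.0241) and Mrpl1 at 23.8 ± 0.181 CPM in NSFr and 28 ± 1.18 CPM in control (-0.24 ± 0.065, adjusted p = 0.0211). In NSFr against control, 60 of the 76 genes had a negative change, with a median of -0.0482 against -0.0046 over all genes. Without control 1, neither RGW nor NSFr against control had a call, where 1.87% and 5.65% of all genes were called. Without NSFr 1 or NSFr 3, NSFr against control had no call either, where 5.2% and 5.44% of all genes were called. Without control 3 the count ran up to 4 for RGW (5.26%, against 2.83% of all genes) and 6 for NSFr (7.89%, against 7.01%). In NSFr against control, Mrpl41 lost its call in 5 of 13 alternatives and Mrpl1 in 6. Rb2 gave 0 calls among the 76 in edgeR and in DESeq2, where edgeR called 1.53% of all genes, 0.575% higher and 0.96% lower. There 3 members had an unadjusted p under 0.05. Mrpl41 averaged 25.3 ± 0.335 CPM in Rb2, with a log2 fold change of -0.03 and a 95% interval from -0.17 to 0.11. For all 76 genes the interval after Rb2 lay within 1.25-fold of control, as it did for 74.0% of all tested genes.

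When D-galactose followed a preparation, the family was compared with D-galactose alone, in 4 comparisons that share the 3 Dgal libraries. The saponin fraction gave the most calls of any comparison here. Between SFr_Dgal and Dgal, 20 of 76 genes (26.3%) were called, 15 higher and 5 lower, against 41.3% of all genes, 20.3% higher and 21.0% lower. Mrps12, whose protein sits at the decoding centre, had 21.5, 20.9 and 24.8 CPM in SFr_Dgal, against 18.4, 16.3 and 17.5 CPM in Dgal (log2 fold change 0.37 ± 0.072, adjusted p = 8.59e-05). Mrpl14, a protein of the face that meets the small subunit, had 52.5, 54.5 and 70.2 CPM in SFr_Dgal, against 46.9, 46.8 and 42.1 CPM in Dgal (0.39 ± 0.093, adjusted p = 0.00153). For both genes the groups did not overlap and the call held in every alternative, although SFr_Dgal 3 was the highest library. Mrpl54 had 28.1, 28.6 and 33.4 CPM in SFr_Dgal, against 23.8, 24.3 and 23.3 CPM in Dgal (0.34 ± 0.094, adjusted p = 0.00488), and Mrpl12, which forms the stalk that recruits translation factors, averaged 56.1 ± 7.22 CPM in SFr_Dgal and 45.4 ± 1.09 CPM in Dgal (0.31 ± 0.090, adjusted p = 0.00874). Mrpl52 (0.29), Mrps24 (0.28), Mrpl23 (0.28) and Mrpl43 (0.26) rose as well. The remaining 7 rises, from 0.15 to 0.24, were in Mrps36, Mrps26, Mrpl51, Mrpl11, Mrpl48, Mrpl9 and Mrpl38.

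The 5 falls between SFr_Dgal and Dgal were in Mrpl47 (16.8 ± 1.32 CPM in SFr_Dgal, 19.9 ± 1.40 CPM in Dgal; log2 fold change -0.25 ± 0.074, adjusted p = 0.00753), Mrps10, Mrpl32, Mrps15 and Mrpl50 (-0.16 to -0.13). Mrpl47 lost its call without Dgal 1 (adjusted p = 0.0637) and Mrps10 without SFr_Dgal 1 (0.116). Mrpl32 lost its call in 4 of 13 alternatives (adjusted p up to 0.125), Mrpl50 in 5 (0.122) and Mrps15 in 6 (0.193). Without SFr_Dgal 3 there were 9 calls (11.8%, against 35.3% of all genes), 3 higher and 6 lower. There Mrpl12 (adjusted p = 0.0939) and Mrpl54 (0.0594) lost theirs. With the 3 libraries left out there were 13 calls (17.1%, against 37.3% of all genes), 7 higher and 6 lower. The 7 were Mrps12 (0.29), Mrpl54 (0.26), Mrpl14 (0.25), Mrpl43, Mrps36, Mrpl12 and Mrpl23 (0.20 to 0.21). Mrpl52 lost its call in 5 of 13 alternatives, with a log2 fold change down to 0.02 and an adjusted p up to 0.806. Removing the length trend gave 10 higher and 17 lower (35.5%, against 43.6% of all genes). The median change of the 76 genes was 0.0451, and 7 of 12 myotube markers and all 12 proliferation markers fell in SFr_Dgal, whose part was not tested. Without Dgal 2 there were 12 calls and without Dgal 3 there were 13. Dgal stands both in this comparison and in that with control, so the values are given side by side: Mrpl23 averaged 22.3 ± 2.03 CPM in SFr_Dgal, 18.4 ± 1.00 CPM in Dgal and 23.6 ± 2.18 CPM in control, and Mrpl52 averaged 34.4 ± 5.27, 28.2 ± 1.00 and 34.5 ± 4.22 CPM in the same order.

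The other 3 preparations, given before D-galactose, had 0 calls with all 30 libraries fitted together. RGW_Dgal against Dgal had 0 calls in edgeR and in DESeq2, where edgeR called 5.06% of all genes, 2.52% higher and 2.54% lower. At an unadjusted p under 0.05 there were 7 members, a looser threshold for which no share of all genes was counted. NSFr_Dgal against Dgal had 0 calls in edgeR, against 6.33% of all genes (3.5% higher, 2.82% lower), and 12 members at an unadjusted p under 0.05. DESeq2 called 2, Mrpl52 (log2 fold change 0.32, adjusted p = 0.0227) and Mrpl54 (0.28, adjusted p = 0.0488). With the 3 libraries left out, none of them in these groups, RGW_Dgal against Dgal had 3 calls (3.95%, against 7.27% of all genes). All were higher, in Mrpl54 (0.26, adjusted p = 0.0147), Mrpl52 (0.23, 0.0264) and Mrps12 (0.20, 0.0449). NSFr_Dgal against Dgal then had 7 (9.21%, against 9.43% of all genes). Of these 5 were higher, led by Mrpl52 (0.32, 0.00171), Mrpl54 (0.27, 0.00688) and Mrps12 (0.22, 0.0178), and 2 were lower, Mrps27 and Mrps10. Fitting only the groups compared called 1 and 7 in these comparisons (1 and 6 higher). That was 1.32% and 9.21% of members, against 2.93% and 8.68% of all genes. Removal of the length trend called 4 and 7 (1 higher in each), or 5.26% and 9.21%, against 8.12% and 10.4% of all genes. Rb2_Dgal against Dgal had 0 calls in edgeR, in DESeq2 and under those 3 alternatives. There edgeR called 2.26% of all genes, 1.16% higher and 1.1% lower, and 4 members had an unadjusted p under 0.05. Mrps12, which rose between SFr_Dgal and Dgal, averaged 20.0 ± 0.956 CPM in RGW_Dgal, 20.3 ± 0.615 CPM in NSFr_Dgal, 19.8 ± 0.810 CPM in Rb2_Dgal and 17.4 ± 1.08 CPM in Dgal (adjusted p = 0.124, 0.0596 and 0.276 for the 3 preparations). Its 95% intervals of the log2 fold change were 0.05 to 0.35, 0.08 to 0.37 and 0.03 to 0.33, which overlap that of SFr_Dgal against Dgal (0.22 to 0.51).

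Within each preparation, D-galactose called few of the genes. Between RGW_Dgal and RGW, Mrps18b alone was called of the 76 (1.32%), where 15.2% of all genes were, 6.3% higher and 8.93% lower. Between SFr_Dgal and SFr, 5 of 76 (6.58%) were called, against 19.0% of all genes (8.46% higher, 10.5% lower): Mrps18b, Mrpl1 (27.1 ± 2.74 CPM in SFr_Dgal, 23.9 ± 1.58 CPM in SFr; 0.18 ± 0.064, adjusted p = 0.0405) and Mrps31 (0.18) rose, and Mrpl21 (-0.17) and Mrps5 (-0.16) fell. There were 2 calls (2.63%) without SFr 2, SFr 3 or SFr_Dgal 2, against 14.8%, 14.5% and 15.5% of all genes. Without SFr_Dgal 3 there were 3 (3.95%, against 15.6%). Mrpl1 and Mrps31 were not called without SFr 3 or without SFr_Dgal 3. Between NSFr_Dgal and NSFr, 3 of 76 (3.95%) were called, all higher, against 12.7% of all genes, 5.76% higher and 6.98% lower. They were Mrps18b, Mrpl1 (27.6 ± 2.13 CPM in NSFr_Dgal, 23.8 ± 0.181 CPM in NSFr; 0.21 ± 0.065, adjusted p = 0.0263) and Mrps31 (24.7 ± 0.279 CPM in NSFr_Dgal, 21.5 ± 0.485 CPM in NSFr; 0.20 ± 0.064, adjusted p = 0.0342), and none was called without NSFr_Dgal 2. With the 3 libraries left out there were 5 calls (6.58%, against 15.8% of all genes), 4 higher and 1 lower. A single call (1.32%) was left without NSFr 2 or NSFr 3, against 8.49% and 9.96% of all genes. Mrpl1 fell after SFr and NSFr alone and rose when D-galactose followed either, but the D-galactose response did not pass the test of a difference between backgrounds (adjusted p = 0.510).

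Between Rb2_Dgal and Rb2, 7 of 76 genes (9.21%) were called, 1 higher and 6 lower, against 21.0% of all genes, 9.81% higher and 11.2% lower. Besides Mrps18b, the calls were falls of small size, in Mrps10 (39.3 ± 1.07 CPM in Rb2_Dgal, 44.3 ± 0.979 CPM in Rb2; log2 fold change -0.17 ± 0.052, adjusted p = 0.0167), Mrps11, Mrps28, Mrpl3, Mrpl18 and Mrps7. Mrps10, Mrps11 and Mrps7 encode small subunit proteins of bacterial origin. Mrps11 averaged 10.4 ± 0.447 CPM in Rb2_Dgal and 12.4 ± 0.292 CPM in Rb2 (-0.26 ± 0.087, adjusted p = 0.0297). The 7 calls shrank to between 0 and 3 when any 1 of the 6 libraries was left out, and were 0 without Rb2_Dgal 3. That was at most 3.95% of members, against 13.6% to 17.3% of all genes. They grew to 15 (19.7%), 2 higher and 13 lower, with control 1, RGW 1 and SFr_Dgal 3 left out, where 24.6% of all genes were called. When only the groups compared were fitted they grew to 17 (22.4%), against 27.2% of all genes.

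Tests of whether the D-galactose response differed between backgrounds called 0 of the 76 genes. Over all 5 backgrounds edgeR and DESeq2 called 0 of the 76, where edgeR called 0.796% of all genes. There 3 members had an unadjusted p under 0.05. The smallest p was that of Mrpl41 (adjusted p = 0.192). For the saponin fraction alone, edgeR and DESeq2 called 0 of the 76, where edgeR called 0.583% of all genes. At an unadjusted p under 0.05 there were 11 members, a looser threshold for which no share of all genes was counted. Among them were Mrpl54 (interaction log2 0.41, 95% interval 0.14 to 0.68, adjusted p = 0.153) and Mrpl41 (0.32, 0.12 to 0.53, adjusted p = 0.134). The 95% interval of the interaction lay within 1.25-fold for 48 of the 76 genes (and 57.8% of all tested genes) and within 1.5-fold for 74 of the 76. For the other genes it reached past these bounds, so interactions of that size were neither called nor excluded for them. Without control 3, 2 genes were called.

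The saponin and the non-saponin fraction were set against each other directly, with and without D-galactose, in comparisons that share no library. Between SFr_Dgal and NSFr_Dgal, 10 of 76 genes (13.2%) were called, 7 higher and 3 lower, against 41.0% of all genes, 20.7% higher and 20.3% lower. Between SFr and NSFr, 10 (13.2%) were also called, 8 higher and 2 lower, against 40.4% of all genes, 20.8% higher and 19.6% lower. Mrpl43, a large subunit protein gained in the mitochondrial lineage, led both. It had 61.7, 64.8 and 70.9 CPM in SFr_Dgal, against 52.7, 50.6 and 49.8 CPM in NSFr_Dgal (log2 fold change 0.37 ± 0.059, adjusted p = 5.24e-06), and 61.0, 62.0 and 60.2 CPM in SFr, against 49.6, 53.0 and 51.0 CPM in NSFr (0.25 ± 0.060, adjusted p = 8.15e-04). The groups did not overlap in either, and both calls held in every alternative. Mrpl14 averaged 59.0 ± 9.69 CPM in SFr_Dgal and 46.7 ± 1.61 CPM in NSFr_Dgal (0.34 ± 0.091, adjusted p = 0.00410), and 55.8 ± 1.77 CPM in SFr and 47.1 ± 2.63 CPM in NSFr (0.25 ± 0.092, adjusted p = 0.0357). The call of Mrpl14 with D-galactose was lost without SFr_Dgal 3 (adjusted p = 0.0563), and that without D-galactose was lost without any 1 of 5 of the 6 libraries.

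With D-galactose, Mrpl16, near the site of peptide bond formation, had 24.4, 24.9 and 26.1 CPM in SFr_Dgal, against 29.7, 30.8 and 27.8 CPM in NSFr_Dgal (-0.23 ± 0.060, adjusted p = 0.00262), called in every alternative. Mrpl18, Mrpl24, Mrps30, Mrpl34 and Mrps18b rose by 0.15 to 0.24 and Mrpl47 and Mrpl32 fell by 0.21 and 0.15. Without SFr_Dgal 3 there were 3 calls (3.95%, against 34.4% of all genes) and without SFr_Dgal 1 there were 20 (26.3%, against 39.6%). Without NSFr_Dgal 2 or NSFr_Dgal 3 there were 6 (7.89%, against 35.3% and 35.1%). Without D-galactose, Mrps6, Mrpl21, Mrpl51, Mrps27, Mrpl38 and Mrpl9 rose by 0.14 to 0.18 and Mrpl32 and Mrpl42 fell by 0.17 and 0.14. There were 3 calls without SFr 1 (3.95%, against 34.1% of all genes), 5 without SFr 2 (6.58%, against 35.6%) and 4 without NSFr 1 (5.26%, against 35.5%). The length trend, once removed, gave 5 higher and 11 lower with D-galactose (21.1%, against 43.8% of all genes). Without D-galactose it gave 9 higher and 8 lower (22.4%, against 43.9%). Mrpl43 overlaps the opposite-strand gene Twnk, the mitochondrial DNA helicase, by 507 bases, and Mrpl47 overlaps Actl6a and Ndufb5, so their counts are uncertain if strand was not used. The same limit holds for other called members, among them Mrpl14 (Tmem63b, 106 bases), Mrpl18 (Tcp1, 141), Mrpl48 (Rab6a, 708) and Mrpl36 (Ndufs6, 30).

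**Figure D5:**
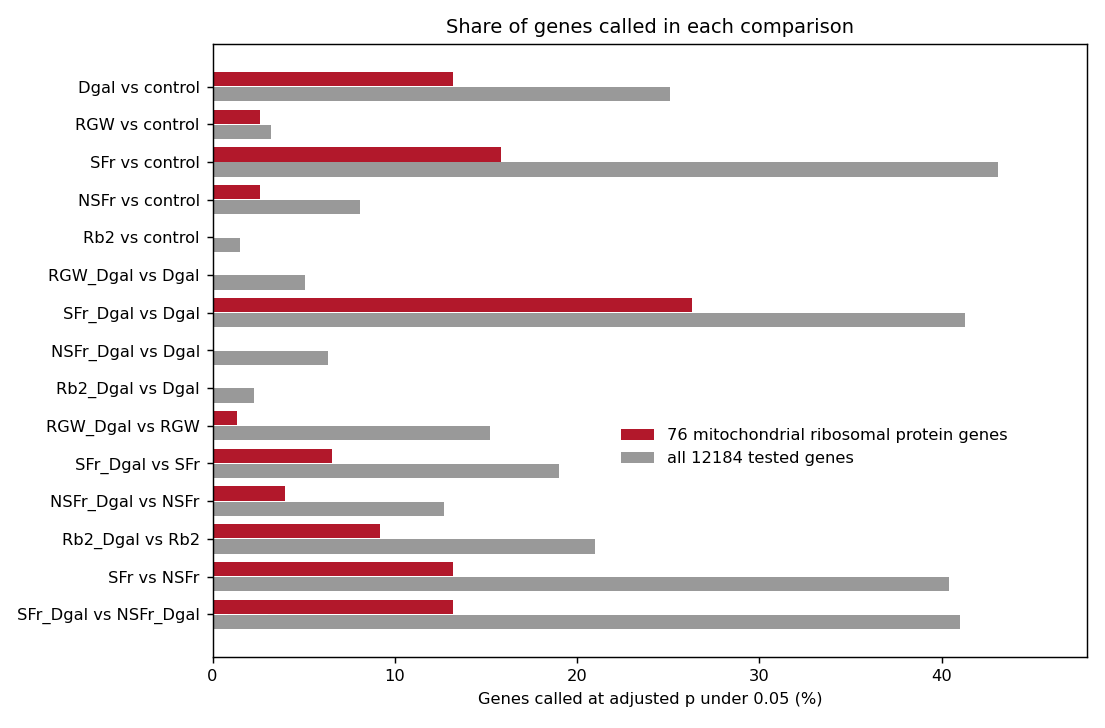
Share of the 76 mitochondrial ribosomal protein genes (red) and of all 12184 tested genes (grey) called at an adjusted p under 0.05 in each of the 15 pairwise comparisons. The red bar is shorter than the grey one in all 15, and the longest is that of SFr_Dgal against Dgal, at 26.3% against 41.3%.

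The roles within the ribosome were read as counts, in 4 lists that hold 73 of the 76 genes; Mrps18a, Mrps18b and Mrps36 are in none of them and were counted apart. Between Dgal and control, of 29 large subunit genes with a bacterial counterpart 1 rose and 4 fell, of 19 large subunit genes gained in mitochondria 0 rose and 3 fell, of 15 small subunit genes with a bacterial counterpart 1 rose and 0 fell, and of 10 other small subunit genes none was called; over all genes 11.9% were higher and 13.1% lower. Their median log2 fold changes were -0.018, -0.045, -0.031 and -0.094. The rise of Mrps18b comes on top of these. Between SFr_Dgal and Dgal the same 4 lists had 5, 6, 2 and 1 rises and 2, 1, 2 and 0 falls, with medians of 0.062, 0.03, 0.031 and 0.045, where 20.3% of all genes were higher and 21.0% lower, and Mrps36 rose outside the lists. Of the 3 stalk proteins, Mrpl11 and Mrpl12 rose between SFr_Dgal and Dgal. Of 5 proteins at the exit tunnel, Mrpl23 was called in both comparisons, lower in Dgal than in control and higher in SFr_Dgal than in Dgal.

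The rest of the mitochondrial translation pathway was followed in lists of other genes. The 5 ribosomal proteins of other name (Dap3, Chchd1, Ptcd3, Aurkaip1 and Gadd45gip1) had 0 calls between Dgal and control, where 11.9% of all tested genes were higher and 13.1% lower. Of 28 assembly and ribosomal RNA maturation genes, 9 rose and 1 fell, with a median of 0.074: Mrm1, a methyltransferase of the large ribosomal RNA, by 0.30 ± 0.084 (adjusted p = 0.00775), Rpusd4, a pseudouridine synthase, by 0.27 ± 0.079 (0.0122) and Mettl17, a factor of small subunit assembly, by 0.25 ± 0.083 (0.0242). Of 20 genes of mitochondrial tRNA charging, 4 rose and 0 fell, among them Pars2 (0.37 ± 0.088, adjusted p = 0.00225), Mars2 (0.26 ± 0.068, 0.00540) and Tars2 (0.24 ± 0.056, 0.00188), the synthetases for proline, methionine and threonine. Mtif3, an initiation factor, rose by 0.17 ± 0.058 (adjusted p = 0.0275) as 1 of 15 translation factors, and Tefm, the mitochondrial transcription elongation factor, by 0.31 ± 0.079 (0.00389) as 1 of 14 genes of transcription and its regulators. Of the 13 transcripts translated by this ribosome, 7 rose and 0 fell, with a median of 0.623. By contrast, of 80 cytosolic ribosomal protein genes, 0 rose and 57 fell, with a median of -0.245. The cytosolic count was 0 higher and 47 lower with the 3 libraries left out, and 1 higher and 59 lower with the length trend removed. Cytosolic ribosomal protein genes have many near-identical pseudogene copies, so their counts are uncertain.

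Between SFr_Dgal and Dgal, the median log2 fold change over all genes was -0.0055, and 20.3% of them were higher and 21.0% lower. Of the 28 assembly genes, 6 rose and 5 fell. Afg3l2, a subunit of the protease that matures Mrpl32, rose by 0.37 ± 0.036 (adjusted p = 2.35e-10). Mrpl32 itself fell by 0.16, a call lost in 4 of 13 alternatives, and a link between these changes was not tested. Mpv17l2, a factor of ribosome assembly, rose by 0.48 ± 0.088 (4.72e-05) and Malsu1, which binds the large subunit, by 0.31 ± 0.081 (0.00253). Mars2 (-0.40 ± 0.068, 1.09e-05) and Pars2 (-0.27 ± 0.086, 0.0123) fell, as 2 of the 4 tRNA charging genes that fell of 20. Ppargc1a, the coactivator PGC-1alpha, fell by 0.77 ± 0.17 on the log2 scale (adjusted p = 4.90e-04) and Ppargc1b rose by 0.42 ± 0.12 (0.00576). Of the mitochondrially encoded transcripts 1 rose and 3 fell, and of the cytosolic ribosomal proteins 25 rose and 3 fell. The cytosolic count was 18 higher and 11 lower with the 3 libraries left out and 11 higher and 26 lower with the length trend removed.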

How the data were processed

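RNA-seq of poly(A) RNA (directional MGIEasy libraries, paired-end DNBSEQ) was measured in 30 cultures, 3 per group, which the design calls biological replicates. The authors deposited RSEM expected counts per gene; per the submitters' processing notes, reads were handled with RSEM 1.3.3, STAR 2.7.9a, Trim Galore 0.6.10 and FastQC 0.11.9, and the build was GRCm38/mm10. Which gene annotation was used, and whether strand was used, is not given in the sources used here. RSEM divides reads between similar genes, so 19.4% of values were not whole.

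Expected counts were rounded to whole numbers, genes filtered with filterByExpr, libraries scaled by TMM, and all 30 libraries fitted together with edgeR 4.0.16 (quasi-likelihood F-test, robust; R 4.3.3). P-values were adjusted by Benjamini-Hochberg over 12184 genes and called under 0.05. Each SE was taken as the absolute log2 fold change over the root of its F statistic. A count of 3, the floor of detection, equals 0.0993 to 0.135 CPM. The code was tested on simulated data.

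Members and gene lists were chosen with earlier results of these data known. Named members were, per comparison, up to 6 called genes in each direction with the largest fold change, the 8 of smallest p in the omnibus test, the 3 highest and 3 lowest per kilobase and the S18 paralogs; any other called member is named after its values were seen. Alternatives were DESeq2 1.42.0, RLE scaling, no filter, a replicate block, only the groups compared and leaving out each replicate; 2 more, leaving out 3 libraries and removing a trend on transcript length, were chosen after seeing the data.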

Additional observations from a re-analysis of the deposited data

How the results depend on the processing

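Of 63 results on named genes, 8 kept their call in every alternative run, 55 lost it in at least 1 and 0 changed sign; RLE scaling lost 0, DESeq2 5, no filter 8, only the groups compared 16, the 27-library fit 20 and removal of the length trend 8. The cause of these changes was not tested. The share of members called exceeded that of all genes in 0 of 15 comparisons in the main fit and in 4 of 195 pairs of comparison and alternative. These 4 were RGW against control without control 3 or without RGW 2, NSFr against control without control 3, and NSFr_Dgal against Dgal with only those groups fitted. For every other pairwise count of calls below, the share of members was no larger than that of all genes.

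Fitting only the groups compared called 0 members in RGW against control, 1 in NSFr against control, 1 in RGW_Dgal against Dgal, 13 in SFr_Dgal against Dgal, 7 in NSFr_Dgal against Dgal, 1 in SFr_Dgal against SFr, 5 in NSFr_Dgal against NSFr and 17 in Rb2_Dgal against Rb2. RGW against control had 1 without the filter, and NSFr_Dgal against Dgal had 2 in DESeq2. The 27-library fit called 6 in Dgal against control, 0 in RGW and 0 in NSFr against control, 13 in SFr_Dgal against Dgal, 3 in SFr_Dgal against SFr and 6 in SFr_Dgal against NSFr_Dgal. It also moved comparisons that hold none of the 3 libraries. There were 3 calls in RGW_Dgal and 7 in NSFr_Dgal against Dgal, 5 in NSFr_Dgal against NSFr, 15 in Rb2_Dgal against Rb2 and 14 in SFr against NSFr. In those the same libraries are compared, and only steps shared by all groups differ: the filter, scaling, estimated spread and adjustment. The part of each step was not tested. With the length trend removed there were 21 in SFr, 8 in NSFr and 1 in Rb2 against control, 4 in RGW_Dgal and 7 in NSFr_Dgal against Dgal, 3 in RGW_Dgal against RGW, 10 (5 higher, 5 lower) in SFr_Dgal against SFr, 6 in NSFr_Dgal against NSFr, 11 (4 higher, 7 lower) in Rb2_Dgal against Rb2, 17 in SFr against NSFr and 16 in SFr_Dgal against NSFr_Dgal.

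Leaving out 1 library at a time gave 3 to 13 calls in Dgal against control, 0 to 4 in RGW, 4 to 13 in SFr, 0 to 6 in NSFr and 0 to 0 in Rb2 against control. Against Dgal the ranges were 0 to 1 for RGW_Dgal, 9 to 20 for SFr_Dgal and 0 to 0 for NSFr_Dgal and for Rb2_Dgal. Against the preparation alone they were 0 to 1 for RGW_Dgal, 2 to 6 for SFr_Dgal, 0 to 3 for NSFr_Dgal and 0 to 3 for Rb2_Dgal. They were 3 to 10 in SFr against NSFr, 3 to 20 in SFr_Dgal against NSFr_Dgal, 27 to 40 in the omnibus test, 0 to 0 in the interaction over 5 backgrounds and 0 to 2 in that of SFr.

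The replicate numbers did not pair the libraries: deviations of same-numbered libraries correlated by -0.206 to 0.166 over 135 pairs, and in 0 of 15 comparisons were all above 0.1. With the replicate number as a block, calls were 9 in Dgal against control, 1 in RGW, 12 in SFr and 2 in NSFr against control, 19 in SFr_Dgal against Dgal, 4 in SFr_Dgal against SFr, 6 in Rb2_Dgal against Rb2 and 30 in the omnibus test. The common coefficient of biological variation was 4.255%, a spread that counting error alone reaches at 552 counts; 12 of the 76 genes averaged fewer counts, and for them depth limits precision most.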

Other observations

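Mrps18b starts 45 bases from Ppp1r10, a regulator of protein phosphatase 1 that runs the other way, and Ppp1r10 rose in the same 5 D-galactose comparisons. Its log2 fold change was 0.21 ± 0.041 in Dgal against control (SE; edgeR adjusted p = 2.69e-04), 0.20 ± 0.041 in RGW_Dgal against RGW (8.01e-04), 0.16 ± 0.040 in SFr_Dgal against SFr (0.00331), 0.16 ± 0.041 in NSFr_Dgal against NSFr (0.00742) and 0.18 ± 0.041 in Rb2_Dgal against Rb2 (0.00141). Ppp1r10 was also called between SFr and control (0.22 ± 0.041, adjusted p = 4.44e-05) and between SFr_Dgal and Dgal (0.17 ± 0.040, adjusted p = 8.13e-04), where Mrps18b was not (0.13, adjusted p = 0.0610, and 0.07, adjusted p = 0.270). Other back-to-back pairs differed. Between Dgal and control, Mrpl57 differed by 0.04 on the log2 scale (adjusted p = 0.798) and Ska3, a kinetochore gene that starts 49 bases away, fell by 1.12 on the log2 scale (7.60e-05). Between SFr_Dgal and Dgal, Mrpl51 rose by 0.19 (adjusted p = 0.00860) and Ncapd2, a condensin subunit 100 bases away, fell by 0.51 (2.03e-07), while Mrpl54 rose by 0.34 (0.00488) together with Apba3, 26 bases away, by 0.21 (5.49e-04).

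The cytosolic ribosomal protein genes had falls in each of the 5 D-galactose comparisons: of 80, 57 fell between Dgal and control, 9 between RGW_Dgal and RGW, 12 between SFr_Dgal and SFr, 9 between NSFr_Dgal and NSFr and 34 between Rb2_Dgal and Rb2, with 0, 0, 0, 0 and 1 rising. Over all genes 13.1%, 8.93%, 10.5%, 6.98% and 11.2% fell in these comparisons. Of the 76 mitochondrial ones 7, 0, 2, 0 and 6 fell in the same comparisons. Between NSFr_Dgal and Dgal, 24 of the 80 cytosolic genes rose and 0 fell, where 3.5% of all genes rose and 2.82% fell, against 0 calls among the mitochondrial ones.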
